A study of Rattus norvegicus with 6 samples.

Results

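Rarres1, Rarres2 and Tgm2 are 3 genes that carry a name or a reputation for answering to retinoic acid (RA) in tissues other than cartilage, and they were selected by gene symbol as 3 of the 18923 genes in the deposited tables. The question was how each of them behaved in chondrocytes after RA. Primary chondrocytes had been digested from the cartilage of 24-h-old female Sprague-Dawley rats of WT genotype and were used at passage 1 or 2. The 3 CON samples were kept for 24 h in high-glucose DMEM with fetal bovine serum and penicillin-streptomycin, and the 3 RA samples were kept for 24 h in that medium with 1 µM all-trans RA. The sources used here name no vehicle in the CON medium and do not say whether cells of several animals were pooled.

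RA is the active form of vitamin A. It binds RA receptors, which sit on DNA as partners of retinoid X receptors at direct repeats of a short half-site, and it turns on nearby genes. Rarres1 (RA receptor responder 1) encodes a membrane protein first found in skin treated with a synthetic retinoid and is related to latexin, an inhibitor of carboxypeptidases. Rarres2 (RA receptor responder 2) encodes chemerin, a secreted protein that proteases trim at its C terminus into a chemoattractant for immune cells and that is best known from liver and fat. Tgm2 encodes tissue transglutaminase, a calcium-dependent enzyme that crosslinks matrix proteins such as fibronectin, and it is a classical RA-induced gene of macrophages and a known gene of hypertrophic cartilage.

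The 3 genes did not move in a common direction. Rarres1 was lower in RA, at 0.547 times its CON level, Tgm2 was higher, at 1.88 times, and Rarres2, at 0.717 times, did not pass the test. All 3 passed the filter on low counts. A gene was called differentially expressed (DEG) when edgeR's quasi-likelihood test gave a Benjamini-Hochberg adjusted p below 0.05 over all 13438 genes tested and its log2 fold change lay beyond 0.58 in either direction. By this rule 667 genes, or 4.96% of those tested, were DEGs, and 2 of the 3 genes were among them. Tgm2 was 1 of the 359 DEGs higher in RA (2.67% of genes tested) and Rarres1 1 of the 308 DEGs lower in RA (2.29%). The same 2 genes also made up those with an adjusted p below 0.05 at any fold, a call that 9.82% of all genes received.

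The promoters of Rarres1 and Rarres2 are shown because the receptors for RA act through the half-sites that they may hold. Of the 3 genes, 2 were matched in the RefSeq promoter table of the rat assembly GRCr8, and Tgm2 was not matched. The promoter of Cyp26a1, the RA-degrading enzyme whose direct repeat is textbook knowledge, is given as a comparator. Each line holds the 250 bases before the transcription start, 5′ to 3′ along the gene, with each half-site in capitals (AGGTCA, its variant AGTTCA, its variant GGGTCA or its variant GGTTCA, searched on both strands), so that a half-site on the opposite strand reads as its reverse complement.
Rarres1: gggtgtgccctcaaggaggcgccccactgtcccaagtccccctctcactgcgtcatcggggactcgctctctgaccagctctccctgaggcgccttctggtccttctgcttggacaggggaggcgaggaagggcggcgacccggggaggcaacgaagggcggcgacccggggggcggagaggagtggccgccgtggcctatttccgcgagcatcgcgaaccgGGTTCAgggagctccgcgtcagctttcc
Rarres2: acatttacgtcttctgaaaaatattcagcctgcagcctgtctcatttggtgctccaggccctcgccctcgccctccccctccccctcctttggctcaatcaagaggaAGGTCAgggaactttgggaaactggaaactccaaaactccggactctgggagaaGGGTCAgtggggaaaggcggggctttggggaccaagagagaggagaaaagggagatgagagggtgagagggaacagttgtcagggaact
Cyp26a1: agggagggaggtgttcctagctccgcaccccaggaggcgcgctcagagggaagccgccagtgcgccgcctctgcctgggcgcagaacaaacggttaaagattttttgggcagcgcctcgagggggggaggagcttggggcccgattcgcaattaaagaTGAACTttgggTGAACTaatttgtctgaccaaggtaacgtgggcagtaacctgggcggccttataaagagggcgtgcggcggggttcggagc
These windows lie at chr2:154094022-154094271 on the minus strand for Rarres1, at chr4:78856409-78856658 on the minus strand for Rarres2 and at chr1:244883572-244883821 on the plus strand for Cyp26a1, all in GRCr8.

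Rarres1 held 1 half-site, GGTTCA, from base -28 to base -23 counted from the start. Rarres2 held 2 half-sites on the same strand, AGGTCA from base -143 to -138 and GGGTCA from base -89 to -84. Neither gene had a pair of half-sites spaced by 1, 2 or 5 bases, the spacings that the RA receptor pairs bind best. Cyp26a1 held such a direct repeat with a spacing of 5, from base -92 to -76, on the opposite strand. Among the 33469 promoters of the table, 39.1% held at least 1 half-site and 10.2% held 2 or more, while a direct repeat with a spacing of 5 was found in 0.326%, 1 with a spacing of 1 in 0.194% and 1 with a spacing of 2 in 0.137%. A single half-site, as in Rarres1, was therefore a common feature. The Rarres1 window was rich in G and C, at 69.2%, against 54.8% for Rarres2 and a median of 51.2% over the table.

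The depth was similar between groups, with total counts from 29370025 to 38007486 per sample, so that a count of 3 stood for 0.0789 to 0.102 CPM (counts scaled to a common library total). The cells carried the genes of chondrocytes at high levels, such as Col2a1 at 5420.1 ± 961 FPKM (read counts scaled by gene length and by the total of the sample; SD, n = 3) in CON, and 9 of 10 chondrocyte markers were DEGs lower in RA, against 2.29% of all genes tested, with summed levels of 8085 to 10089 FPKM in CON and 5135 to 5476 FPKM in RA. In bulk RNA, fewer cells of a type and less RNA per cell cannot be told apart. Established RA targets were among the DEGs higher in RA, namely Cyp26a1 (log2 fold change 3.35) and Cyp26b1 (2.65), which degrade RA, Dhrs3 (0.63), which reduces retinaldehyde, and the RA receptor gene Rarb (1.43), the last a DEG in only 1 of 6 fits when samples were omitted singly. Without CON sample 1, where Rarb kept its call, its log2 fold change was 1.85, and in the other 5 fits it lay between 1.12 and 1.54. The median log2 fold change over all genes tested was -0.0057.

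Rarres1 (ENSRNOG00000037853) had 4.83, 4.32 and 4.14 FPKM in the CON samples and 2.30, 2.12 and 2.90 FPKM in the RA samples 1, 2 and 3. All RA values lay below all CON values, with RA sample 3 the nearest to CON. Groups without overlap were found in 31.9% of all genes tested. The means were 4.43 ± 0.358 and 2.44 ± 0.413 FPKM (SD, n = 3 each), which edgeR put at a log2 fold change of -0.87 with a standard error of 0.164 and a 95% interval from -1.25 to -0.50 (Benjamini-Hochberg adjusted p = 0.0121 in edgeR's quasi-likelihood test). These levels rested on counts of 198, 174 and 210 reads in CON and 91, 83 and 120 reads in RA. Rarres1 was no longer a DEG without RA sample 1, with -0.82 and an edgeR adjusted p of 0.0636, or without RA sample 2, with -0.78 and 0.0613, where the 14 alternatives together gave adjusted p-values from 4.65e-04 to 0.0636 (edgeR, DESeq2 and limma).

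Tgm2 (ENSRNOG00000012956) had 0.808, 1.12 and 0.840 FPKM in the CON samples and 1.69, 1.64 and 1.90 FPKM in the RA samples. Every RA value lay above every CON value, and CON sample 2 was the nearest to RA. Such a lack of overlap was seen in 31.9% of all genes tested. The means were 0.921 ± 0.169 and 1.74 ± 0.136 FPKM (SD, n = 3 each), which edgeR put at a log2 fold change of 0.91 with a standard error of 0.166 and a 95% interval from 0.53 to 1.29 (adjusted p = 0.0105). The reads behind these levels numbered 87, 118 and 112 in CON and 176, 169 and 206 in RA. The call of Tgm2 was lost without RA sample 3, with 0.84 on the log2 scale and an edgeR adjusted p of 0.0574, the highest among 14 alternatives whose lowest was 1.93e-04 (DESeq2). On log2(FPKM + 1) in limma, where its difference was 0.52, Tgm2 lay short of the fold-change threshold.

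Rarres2 (ENSRNOG00000024705) had 4.03, 2.88 and 3.03 FPKM in the CON samples and 2.73, 2.36 and 2.10 FPKM in the RA samples. The groups did not overlap, but the gap between CON sample 2 and RA sample 1 was small beside the spread within CON, where sample 1 stood highest. Groups did not overlap in 31.9% of all genes tested, so this was a common pattern in these libraries. The means were 3.32 ± 0.627 and 2.40 ± 0.319 FPKM (SD, n = 3 each), and the log2 fold change of -0.48 had a standard error of 0.217 and a 95% interval from -0.98 to 0.018 (unadjusted p = 0.0571, adjusted p = 0.224, edgeR). Without CON sample 1 the value was -0.32, with an edgeR adjusted p of 0.423, and the 14 alternatives gave adjusted p-values from 0.156 to 0.498 (edgeR, DESeq2 and limma). Rarres2 had the lowest counts of the 3 genes, from 44 to 84 reads per sample, for which counting alone gives a coefficient of variation of 11.7% in CON and 14.3% in RA, and the measured coefficients were 18.9% and 13.3%. The span of Rarres2 overlaps that of Lrrc61 in the RefSeq annotation of GRCr8, and since the use of strand in counting is not given in the sources used here, reads from the shared part cannot be told apart.

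**Figure D1:**
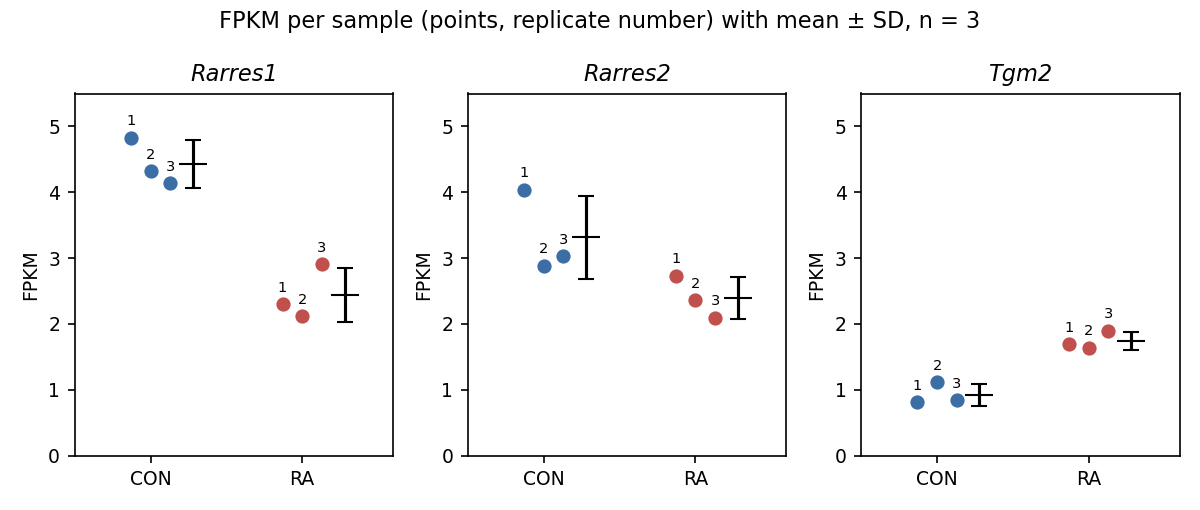
FPKM of Rarres1, Rarres2 and Tgm2 in each of the 3 CON and 3 RA samples (points, numbered by replicate), with the mean and SD of each group beside them. Rarres1 goes from 4.43 to 2.44 FPKM and Tgm2 from 0.921 to 1.74 FPKM without overlap between groups, while the Rarres2 groups nearly touch, at 2.88 FPKM in CON sample 2 and 2.73 FPKM in RA sample 1.

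An exact two-sided permutation test of the mean log2 CPM gave p = 0.1 for each of the 3 genes, which is the smallest p that 3 samples against 3 can give. Levels between the genes were compared in FPKM, which is per length. In CON the order was Rarres1, Rarres2, Tgm2 in each of the 3 samples, and the lowest Rarres1 value, 4.14 FPKM, was close to the highest Rarres2 value, 4.03 FPKM. In RA, Rarres1 and Rarres2 overlapped, with Rarres2 above Rarres1 in samples 1 and 2 and below it in sample 3, and Tgm2 was the lowest in each sample. All 3 were of middle rank: among the 18923 genes, the mean FPKM of Rarres1 stood at percentile 54.3 in CON and 47.2 in RA, that of Rarres2 at 50.6 and 47.0, and that of Tgm2 at 39.5 and 44.2.

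The FPKM ratio of Rarres1 to Tgm2 within a sample was 5.98, 3.87 and 4.92 in CON, against 1.36, 1.29 and 1.53 in RA. The groups were far apart, with means of 4.92 ± 1.05 and 1.39 ± 0.124 (SD, n = 3 each; exact two-sided permutation p = 0.1 on the log2 ratio, the smallest possible). The ratio of Rarres1 to Rarres2 ranged from 1.20 to 1.50 in CON and from 0.840 to 1.39 in RA, and its groups overlapped (exact two-sided permutation p = 0.3 on the log2 ratio). Since the smallest p of this test is 0.1, it could not decide whether the responses of Rarres1 and Rarres2 differed.

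Tgm2 belongs to a family of crosslinking enzymes, of which 8 genes were matched and 6 passed the filter on low counts. Of these 6, 1 was a DEG and higher in RA (Tgm2) and 1 was a DEG and lower (F13a1), or 2 of 6 against 4.96% of all genes tested, and the median log2 fold change of the 5 genes other than Tgm2 was 0.10. F13a1 (ENSRNOG00000015957), the catalytic chain of coagulation factor XIII and a second transglutaminase of hypertrophic cartilage, had 0.703, 0.690 and 0.609 FPKM in CON and 0.158, 0.0975 and 0.160 FPKM in RA. The groups were well separated, with counts of 83, 80 and 89 in CON and 18, 11 and 19 in RA, and edgeR gave a log2 fold change of -2.27 with a standard error of 0.25 and an adjusted p of 8.88e-04. Its call held whichever sample was omitted, with values from -2.39 to -2.08 over the 6 fits. On log2(FPKM + 1) in limma, 0 genes of the family were DEGs, so that F13a1 lost its call there, as Tgm2 did.

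The FPKM ratio of Tgm2 to F13a1 came to 1.15, 1.62 and 1.38 in CON, against 10.7, 16.8 and 11.9 in the RA samples. Tgm2 was the more abundant of the pair in all 6 samples, by a wider margin in RA. The most abundant family member in every sample, named after its values were seen, was Tgm4, known as the prostate transglutaminase, at 4.09 ± 0.333 FPKM in CON against 4.64 ± 0.218 FPKM in RA (SD, n = 3 each), with 0.17 on the log2 scale and an edgeR adjusted p of 0.358. Tgm2 made up 14.5 ± 2.98% of the summed FPKM of the family in CON, against 24.3 ± 0.909% in RA samples (SD over 3 each), and F13a1 made up 10.5 ± 0.744% and 1.93 ± 0.492%. Tgm1, the keratinocyte enzyme, also named after its values were seen, had only 4 to 7 reads per sample in CON and 11 to 15 in RA, and a log2 fold change of 1.34 that did not pass the test (adjusted p = 0.0908, edgeR).

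**Figure D2:**
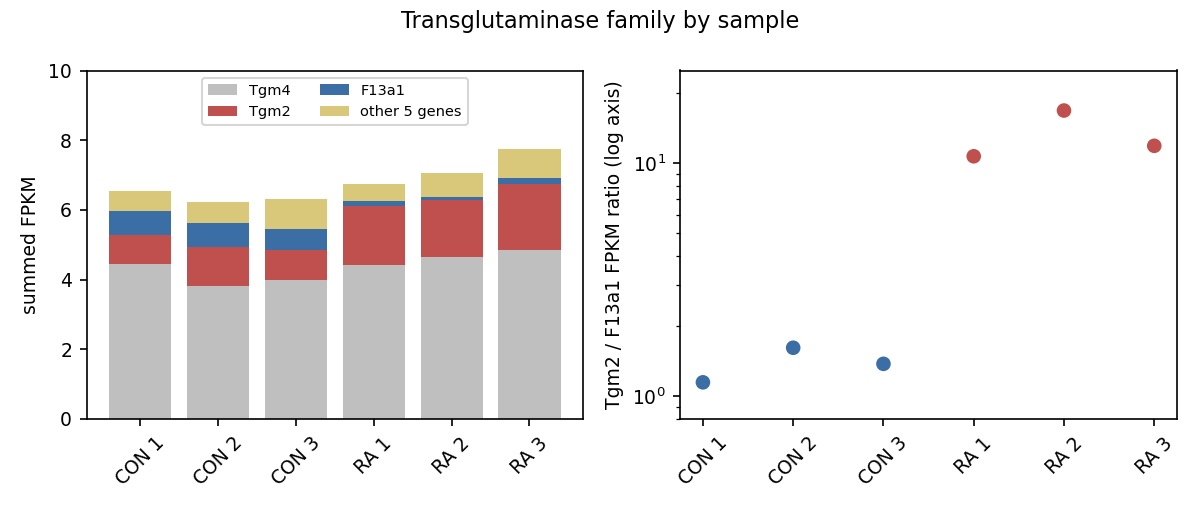
Left, summed FPKM of the 8 matched transglutaminase genes in each sample, stacked by Tgm4, Tgm2, F13a1 and the other 5 genes; right, the FPKM ratio of Tgm2 to F13a1 in each sample on a log axis (blue, CON; red, RA). The ratio lies between 1.15 and 1.62 in CON and between 10.7 and 16.8 in RA, while Tgm4 is the largest share in every sample.

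Outside the cell, Tgm2 is held by fibronectin, integrins and syndecan-4, and it is taken up by Lrp1. Of 9 such partner genes, all tested, 0 were DEGs by edgeR and 0 by DESeq2, and their median log2 fold change was 0.14. An unadjusted edgeR p under 0.05 was found for 3 of the 9, a level whose share over all genes was not counted. With DEGs at 4.96% of all genes tested, a count of 0 among 9 does not set the partners apart. At an edgeR adjusted p below 0.05 and any fold, 2 of the 9 were called, against 9.82% of all genes tested. The most abundant, Fn1, the gene of fibronectin and a main substrate of the enzyme, had 5141, 5117 and 5747 FPKM in CON and 6353, 6544 and 6676 FPKM in RA. Its groups did not overlap, as in 31.9% of all genes tested. Its log2 fold change of 0.28 had an adjusted p of 0.0161 (edgeR) but lay short of the fold-change threshold.

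Chemerin, the product of Rarres2, acts on Cmklr1 and is bound by Ccrl2. A further receptor gene, listed as Gpr1 or Cmklr2, was not analysed here. Of the 2 receptor genes tested, 0 were DEGs by edgeR, 0 by DESeq2 and 0 had an unadjusted p under 0.05, and at 4.96% of all genes called a count of 0 among 2 does not set them apart. Cmklr1, the signalling receptor, had 19.0, 19.7 and 21.4 FPKM in CON and 20.6, 20.7 and 20.0 FPKM in RA. The groups overlapped, and its log2 fold change of 0.012 had a 95% interval from -0.15 to 0.17. Of 11 matched proteases that trim chemerin or start that cascade, 4 passed the filter and 1 was a DEG, against 4.96% of all genes tested. This was Plau, the urokinase plasminogen activator, with 7.71, 9.23 and 8.99 FPKM in CON and 13.4, 13.1 and 14.9 FPKM in RA. The RA values lay well above those of CON, by 0.66 ± 0.0993 (SE) on the log2 scale with an edgeR adjusted p of 0.00428, and the call held in all 6 fits with a sample omitted. Plasminogen itself, Plg, was at 0.0407 FPKM or less in every sample.

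Rarres1 is related to latexin, which inhibits carboxypeptidases of the A type. Of 8 matched genes of this group, 5 were tested and 1 was a DEG, against 4.96% of all genes tested. Their median log2 fold change of -0.55 was the value of Agbl2, a gene with 2 to 19 reads per sample and a 95% interval from -2.09 to 0.99. The DEG was Cpa1, carboxypeptidase A1, best known as a pancreatic digestive enzyme, with 12.005, 10.088 and 11.037 FPKM in CON and 4.228, 5.358 and 5.342 FPKM in RA. The groups were well apart, edgeR gave -1.16 on the log2 scale with a standard error of 0.128 and an adjusted p of 8.88e-04, and the call held whichever sample was omitted. Lxn, the latexin gene, named after its values were seen, was more abundant than Rarres1, with 56.8, 53.1 and 50.7 FPKM in CON and 39.2, 40.7 and 40.9 FPKM in RA. Its groups did not overlap, as in 31.9% of all genes tested. Its log2 fold change of -0.42 had a 95% interval from -0.57 to -0.27 and an adjusted p of 0.00494 (edgeR), short of the fold-change threshold. The level of Rarres1 was 8.14 to 8.51% of that of Lxn in the CON samples and 5.20 to 7.11% in the RA samples.

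Other genes also owe a name or an older name to induction by RA elsewhere. Of 16 such symbols, 12 were matched and 9 tested, and 2 were DEGs, both higher in RA, against 2.67% of all genes tested, with a median log2 fold change of 0.16 over the 9. Both were members of the Gprc5 family of orphan receptors, whose founding member was named RA-induced gene 1. Gprc5b had 2.41, 2.08 and 2.39 FPKM in CON and 4.43, 4.36 and 4.64 FPKM in RA, which is 0.95 on the log2 scale with an edgeR adjusted p of 0.00118. Gprc5a was at 14.7 ± 1.76 FPKM in CON and at 24.8 ± 1.53 FPKM in RA samples (SD over 3 each), or 0.74 on the log2 scale with an edgeR adjusted p of 0.00276. Both calls held whichever sample was omitted. Together with the 3 genes described here, such names thus covered DEGs in both directions and genes that did not pass the test. Rarres1 was the only DEG among them that was lower in RA.

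**Figure D3:**
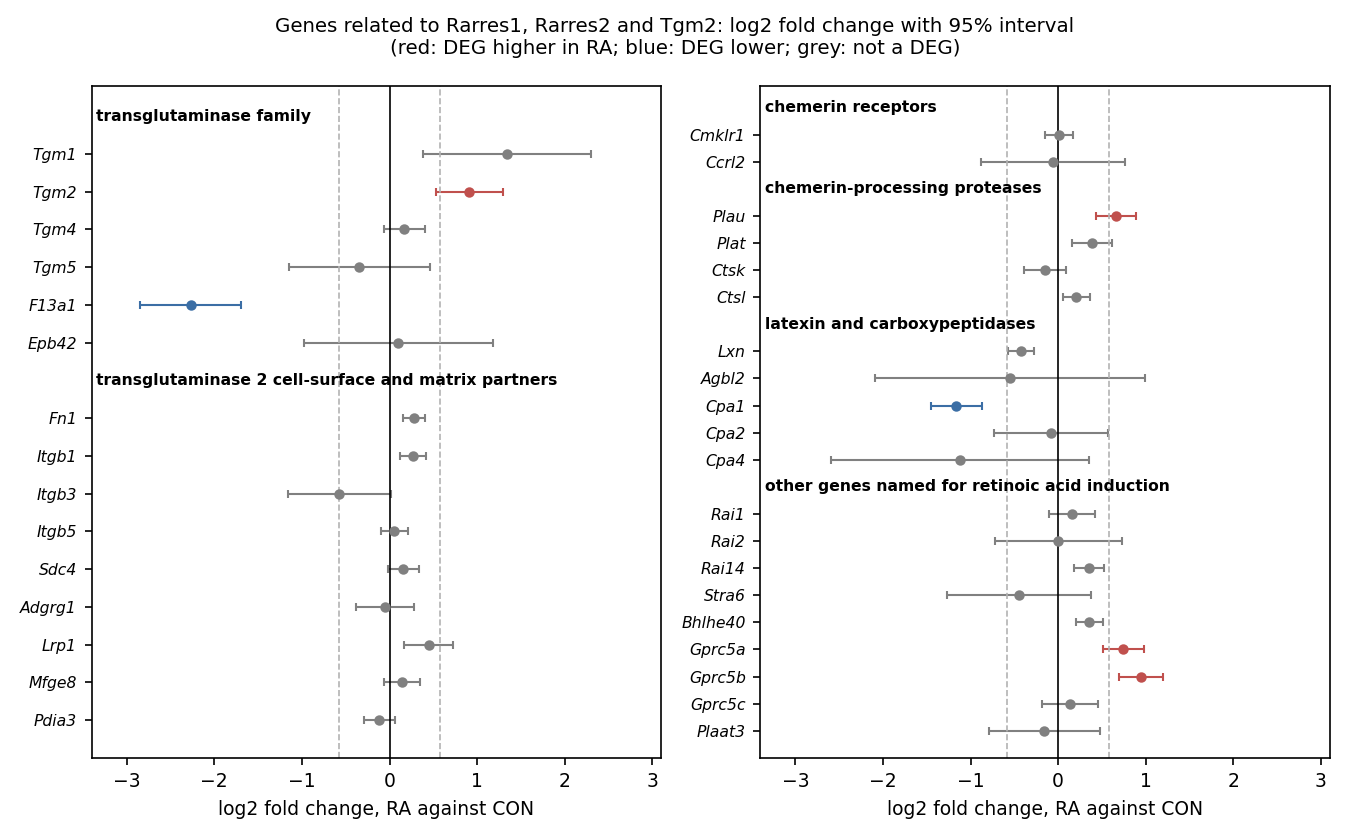
Log2 fold change (RA against CON) with its 95% interval for each tested gene of the lists around Tgm2 (left) and around Rarres2 and Rarres1 (right), with DEGs higher in RA in red, DEGs lower in RA in blue and other genes in grey; dashed lines mark 0.58 in either direction. F13a1 at -2.27 and Cpa1 at -1.16 stand on the low side, and Tgm2 at 0.91, Gprc5b at 0.95, Gprc5a at 0.74 and Plau at 0.66 on the high side.

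Markers of cell types in which these genes are well known were measured beside them. Of 5 adipocyte markers, Adipoq, Plin1 and Lep were below 0.1 FPKM in every sample, and Fabp4, the 1 tested, was a DEG and higher in RA (log2 fold change 0.81), as were 2.67% of all genes tested. Cfd had 5, 5 and 4 reads in the CON samples and 0 in each RA sample. The summed level of the 5, most of it from Fabp4, ran from 2.38 to 3.41 FPKM in CON and from 4.22 to 5.53 FPKM in RA. The keratinocyte genes Krt5 and Krt14 and the epithelial gene Cdh1 were below 0.1 FPKM in every sample, and the summed level of 5 epithelial markers ran from 4.84 to 5.29 FPKM in CON and from 3.74 to 4.41 FPKM in RA, most of it from Krt8. Of 5 matched macrophage markers, Ptprc and Adgre1 were below 0.1 FPKM in every sample. Of the 3 tested, 0 were DEGs by DESeq2 and 0 by edgeR, which does not set them apart at 4.96% of all genes tested. An unadjusted edgeR p under 0.05 was found for 1 of the 3, a level whose share over all genes was not counted. The summed level of the 5 ran from 13.2 to 14.6 FPKM in CON and from 16.1 to 17.3 FPKM in RA, most of it from Cd14. Of 8 fibroblast and synovial markers, 1 was a DEG, Postn, lower in RA (2.29% of all genes tested were). Pdgfra was at 0.44 on the log2 scale with an edgeR adjusted p of 0.00155, short of the fold-change threshold. The summed level of the 8, most of it from Col1a1, overlapped between groups, from 3729 to 4920 FPKM in CON and from 4813 to 5068 FPKM in RA. Of 3 osteoblast markers tested, 1 was a DEG, Ibsp, higher in RA (log2 fold change 1.47), against 4.96% of all genes tested, while Alpl had -0.42 and Sp7 0.23. Dmp1, which edgeR did not test for its low counts, had 4, 2 and 2 reads in CON and 14, 5 and 27 reads in RA and was a DEG by DESeq2, and the summed level of the list overlapped between groups, from 8.20 to 9.47 FPKM in CON and from 8.19 to 8.45 FPKM in RA. Of 2 skeletal muscle markers tested, 1 was a DEG, Tnnt3, lower in RA, against the same 4.96%, while Des was at 0.39 on the log2 scale, and the summed level overlapped as well, from 9.13 to 10.8 FPKM in CON and from 8.55 to 10.5 FPKM in RA. The summed endothelial level overlapped between groups, from 5.46 to 8.02 FPKM in CON and from 6.18 to 6.83 FPKM in RA. The part of other cells, or of the lower chondrocyte markers, in the levels of Rarres1, Rarres2 and Tgm2 was not tested.

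For each gene, the tested genes with a mean of at least 1 FPKM were ranked by how closely their log2 CPM, centred on its mean over the 6 samples, followed that of the gene, by the root mean square difference. This likeness contains the difference between the groups and is a description over 6 samples. The pattern of Rarres1 was most like that of Bace2, a protease related to the beta-secretase (root mean square difference 0.090), of Atf3, a stress-induced transcription factor (0.091), and of Ptgfr, the prostaglandin F receptor (0.092), which were DEGs lower in RA. That of Tgm2 was most like Ednra, the endothelin receptor type A (0.082), Dysf, a membrane repair protein (0.099), and Chst15, a chondroitin sulfotransferase (0.11), which were DEGs higher in RA. That of Rarres2 was most like Wwp1, a ubiquitin ligase (0.051), AABR07053516.1 (0.055) and Noct, a circadian deadenylase-related protein (0.056), none of them a DEG.

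**Figure D4:**
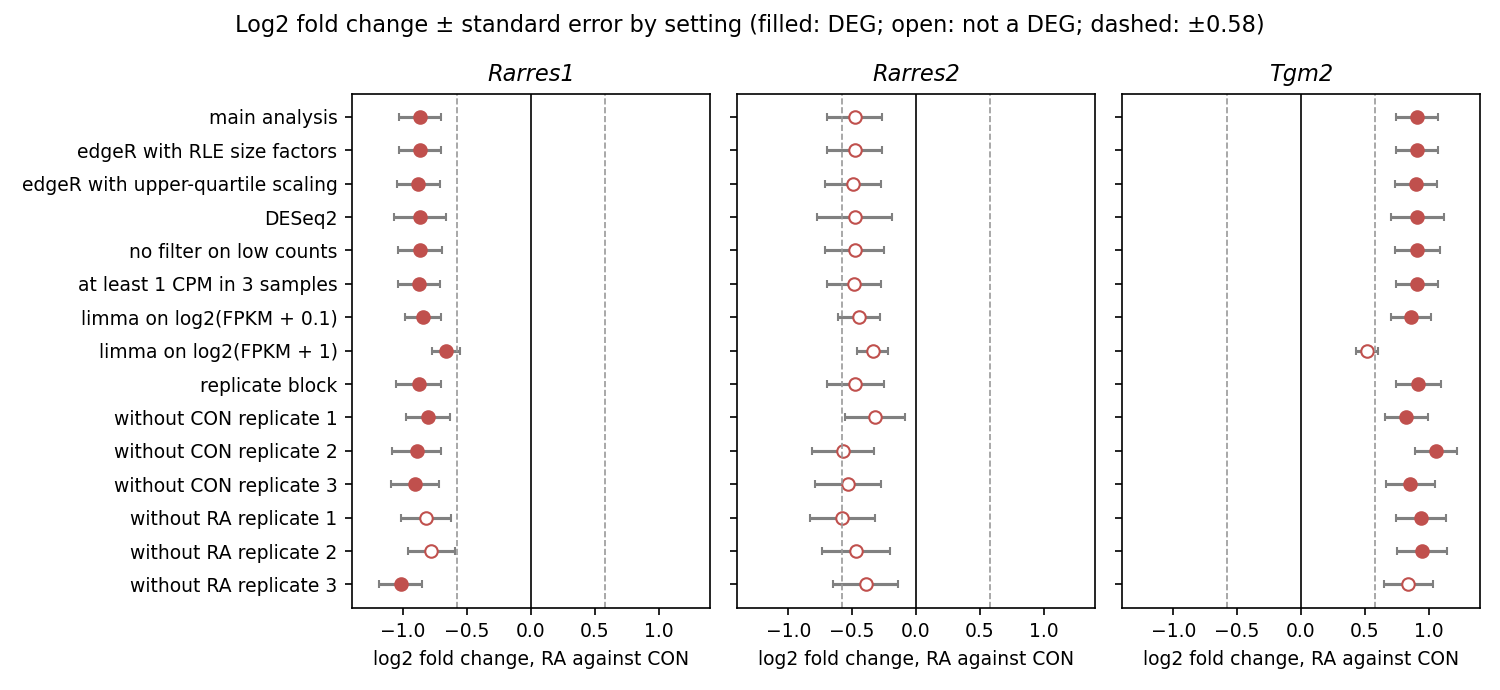
Log2 fold change (RA against CON) with its standard error for Rarres1, Rarres2 and Tgm2 in the main analysis and 14 alternatives; filled points mark a DEG, open points no DEG, and dashed lines mark 0.58 in either direction. Rarres1 lies between -1.02 and -0.66 and Tgm2 between 0.52 and 1.06, each a DEG in 12 of the 14 alternatives, and Rarres2 lies between -0.58 and -0.32 and is a DEG in 0 of them.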

How the data were processed

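Poly(A) RNA of 3 CON and 3 RA samples had been sequenced by the study. For 18923 genes in each sample, the deposited files hold raw counts, as whole numbers. They also hold FPKM values made by the authors, in which a count is divided by gene length and by the summed counts of its library. The submitters' processing notes name HISAT2, HTSeq 0.13.5 and the build Rnor_6.0. The strand setting and the treatment of shared reads are not given in the sources used here. Samples were grouped and numbered from their titles. The study took RNA from independent samples, and nothing says how many animals they came from, so p-values measure the spread between these cultures.

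Counts were tested with edgeR 4.0.16 in R 4.3.3 (glmQLFit and glmQLFTest, TMM, no covariates), after filterByExpr with a minimum count of 10. The DEG threshold joins the study's FDR to its fold change. Standard errors were derived from the F statistic. The statistics were tested on simulated data. FPKM values are given as mean ± SD. Log2 CPM used a prior count of 2. Alternatives were DESeq2 1.42.0, RLE and upper-quartile scaling, no filter, a filter of 1 CPM in 3 samples, limma 3.58.1 on log2(FPKM + 0.1) and log2(FPKM + 1), a replicate block, each sample left out in turn and, for counts of DEGs, 2 other thresholds.

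The genes and lists were chosen with earlier results of these data known. Named genes were the 3 genes, every DEG of a list, the most abundant gene of a list without one, and the 3 nearest patterns of each gene. A gene that this rule names, and the summary of its list, are not reported here. Lxn, Agbl2, Tgm4, Tgm1, Plg, the cell type markers and the chromosomal neighbours were named after their values were seen. No coordinates of Rnor_6.0 were used, and promoters come from RefSeq on GRCr8.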

Additional observations from a re-analysis of the deposited data

How the results depend on the processing

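All 3 genes kept their direction under all 14 alternatives. When samples were omitted singly, the log2 fold change lay between -1.02 and -0.78 for Rarres1 (a DEG in 4 of 6 fits), between 0.82 and 1.06 for Tgm2 (5 of 6) and between -0.58 and -0.32 for Rarres2 (0 of 6). In limma fits on log2(FPKM + 1), Tgm2 had 0.52 and was not a DEG, where the pseudocount is close to its level, the number of DEGs was 434 and that in the transglutaminase family was 0, F13a1 included. Over all genes there were 1319 DEGs with an adjusted p alone, 1017 with an unadjusted p and the fold change, and 480 to 755 with a sample left out. An adjusted p alone called 9.82% of all genes tested. It gave 2 calls among the 9 Tgm2 partners tested and 2 among the 4 chemerin proteases tested. Among the 5 genes tested of latexin and the carboxypeptidases it gave 2, and among the 9 other genes tested that are named for RA it gave 4. With a sample left out, the transglutaminase family had 1 to 2 DEGs and latexin and the carboxypeptidases 1 to 2, the departures from the reported counts of 2 and 1 both coming without RA sample 3.

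Samples with the same replicate number did not deviate together (correlations 0.093, -0.012 and 0.012 for numbers 1, 2 and 3), so the numbers were not taken as pairs. With the replicate block the log2 fold changes were -0.88, -0.47 and 0.92 for Rarres1, Rarres2 and Tgm2, no call of these changed, and 684 genes were DEGs against 667 without it. Not every sample correlated best with the sample of its own number. Rarres2 had 44 to 84 reads per sample, and its spread in CON, 18.9%, was above the 11.7% that counting alone gives. The same held for Tgm2 in CON, at 18.3% against 9.73%, and for Rarres1 in RA, at 16.9% against 10.1%. Rarres1 in CON, at 8.09% against 7.18%, and Tgm2 in RA, at 7.82% against 7.38%, lay nearer to counting. Rarres2 in RA, at 13.3% against 14.3%, lay below it.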

Other observations

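The chromosomal neighbours of the 3 genes, in the order of protein-coding genes of the RefSeq annotation of GRCr8, were looked at after the values of the 3 genes were known. The genes next to Rarres1 are Lxn on one side, at -0.42 on the log2 scale with an edgeR adjusted p of 0.00494, and Mfsd1 on the other, at -2.9e-04 with an adjusted p of 0.998. The next genes outward, Gfm1 and Schip1, had log2 fold changes of 0.090 and 0.23 (adjusted p = 0.409 and 0.121, edgeR). Rarres1 and its relative Lxn thus stood side by side with negative log2 fold changes, and the neighbours on either side of the pair did not pass the test. A negative sign is common, since 48.9% of all genes tested had a log2 fold change above 0. Whether the 2 genes changed together was not tested. The spans of Lxn and Gfm1 overlap, so without strand their shared reads cannot be told apart. The genes next to Rarres2, Lrrc61 and Repin1, had log2 fold changes of 0.23 and 0.064 (adjusted p = 0.472 and 0.83, edgeR), and beyond them Atp6v0e2 and Zfp775 had 0.33 and 0.47 (adjusted p = 0.179 and 0.0671, edgeR). On one side of Tgm2, Rprd1b and Tti1 had 0.024 and 0.023 (adjusted p = 0.909 and 0.881, edgeR), and on the other Kiaa1755 and Bpi were not analysed here. The promoter of Lxn held 1 half-site, GGTTCA, the same letters as in Rarres1, from base -193 to -188 before its start, and the promoter of F13a1 held 0.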
